A study of Mus musculus with 10 samples.

Results

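The 10 genes described here encode the enzymes that add methyl groups to DNA, their direct cofactors, and the enzymes that oxidise and remove the mark: Dnmt3a, Dnmt3b, Dnmt3l, Dnmt1, Uhrf1, Zfp57, Tet1, Tet2, Tet3 and Tdg. They were taken by name from tables of 54532 mouse genes, all 10 were found once, and all 10 passed the low-count filter in every comparison. The study profiled polyadenylated RNA of mouse epiblast stem cells (EpiSC), epiblast stem cell-like cells (EpiLC), embryonic stem cells (ESC) and mouse embryo fibroblasts (MEF), with strain 129SV given for every library. EpiSC are lines of the post-implantation epiblast in the primed state of pluripotency, EpiLC are a transient state that ESC enter on leaving the naive state, and MEF are somatic cells. The 5 EpiSC libraries were 2 haploid lines labelled p53-KO (haEpi1 and haEpi5), 1 diploid line labelled p53-KO, and a female and a male diploid wild-type line. The 2 EpiLC libraries were both haploid, 1 labelled p53-KO and 1 wild type, and the 2 ESC libraries were both wild type, 1 haploid and 1 diploid. The single MEF library was diploid and wild type. Each line is represented by 1 library, so a difference between lines and one between genotypes cannot be told apart, and p-values measure the spread between these libraries.

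Methylation of cytosine in CpG dinucleotides is laid down by the de novo methyltransferases DNMT3A and DNMT3B, and DNMT3L, which has no catalytic activity of its own, binds and stimulates them. DNMT1 copies the pattern onto the new strand after replication and is guided to hemimethylated sites by UHRF1, while ZFP57 is a zinc-finger protein that binds methylated imprinting control regions and protects them. TET1, TET2 and TET3 oxidise 5-methylcytosine, and the glycosylase TDG excises the most oxidised forms. In the mouse embryo the naive epiblast is poorly methylated and gains methylation around implantation, and ESC and EpiSC are the usual cultures of the states before and after that step.

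Library totals were 15862113 to 18814003 counts. Levels are given as CPM, that is, counts scaled to a common library size with TMM factors. Trp53 had 50.5 and 61.8 CPM in haEpi1 and haEpi5, 2.17 in the diploid EpiSC labelled p53-KO and 32.9 in the EpiLC labelled p53-KO. It had 36.9 in the female and 199 in the male wild-type EpiSC, 356 in the EpiLC of wild type, 28.5 in the haploid and 375 in the diploid ESC, and 129 in MEF. Its level therefore did not separate the labels, and a knockout need not remove the transcript. Between EpiSC and ESC, 12 of 14 tested markers of naive pluripotency were called lower (edgeR adjusted p below 0.05), against 10.1% of all genes. Of 11 tested markers of the post-implantation epiblast, 8 were called higher, against 6.86% of all genes. The summed level of 20 fibroblast genes was 2200 to 4410 CPM in EpiSC, 436 and 869 in EpiLC, 1930 and 2470 in ESC, and 86600 in MEF. Libraries are bulk samples, in which fewer cells of a type and less RNA per cell cannot be told apart.

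The promoters of Dnmt3l, Zfp57, Tet1 and Tet2 are shown because these 4 genes fell between ESC and EpiSC. Each is 250 bases before and 50 after the RefSeq start nearest the gene start in the tables (RefSeq, build GRCm38.p6, 5′ to 3′ on the gene's strand), with each CG dinucleotide, the letters that these enzymes act on, in capitals. They lie at chr10:78042037-78042336 (Dnmt3l, plus strand), chr17:37000913-37001212 (Zfp57, plus), chr10:62887275-62887574 (Tet1, minus) and chr3:133544341-133544640 (Tet2, minus).
Dnmt3l: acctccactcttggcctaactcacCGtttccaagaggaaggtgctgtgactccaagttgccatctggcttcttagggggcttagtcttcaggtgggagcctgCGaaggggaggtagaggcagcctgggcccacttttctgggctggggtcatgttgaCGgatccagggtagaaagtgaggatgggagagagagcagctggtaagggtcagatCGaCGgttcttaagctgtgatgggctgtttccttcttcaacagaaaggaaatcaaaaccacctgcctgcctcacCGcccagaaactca
Zfp57: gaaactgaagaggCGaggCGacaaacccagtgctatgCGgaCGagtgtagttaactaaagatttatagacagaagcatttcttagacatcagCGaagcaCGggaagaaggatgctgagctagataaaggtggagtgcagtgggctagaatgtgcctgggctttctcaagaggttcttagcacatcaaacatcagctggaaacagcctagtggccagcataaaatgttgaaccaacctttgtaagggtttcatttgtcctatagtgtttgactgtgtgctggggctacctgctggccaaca
Tet1: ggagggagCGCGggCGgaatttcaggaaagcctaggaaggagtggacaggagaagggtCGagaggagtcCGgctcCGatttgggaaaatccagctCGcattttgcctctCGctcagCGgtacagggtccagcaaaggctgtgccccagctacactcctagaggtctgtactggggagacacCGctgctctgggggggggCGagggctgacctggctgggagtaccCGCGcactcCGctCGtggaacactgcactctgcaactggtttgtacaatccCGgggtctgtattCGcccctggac
Tet2: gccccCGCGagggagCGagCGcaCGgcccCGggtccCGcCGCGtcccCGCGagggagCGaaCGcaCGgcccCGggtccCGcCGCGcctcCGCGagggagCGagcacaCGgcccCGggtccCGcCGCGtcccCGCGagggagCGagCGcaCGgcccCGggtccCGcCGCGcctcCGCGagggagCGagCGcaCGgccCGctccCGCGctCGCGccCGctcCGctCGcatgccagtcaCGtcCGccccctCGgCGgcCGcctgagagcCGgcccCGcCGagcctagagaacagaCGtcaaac

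CG density in these windows differed widely within the set. The Dnmt3l and Zfp57 windows held 6 CG each, near the median of 7 over 32851 RefSeq promoters, the Tet1 window held 17, and the Tet2 window held 57, as many as or more than 99.9% of promoters. Of the other members, Dnmt3a held 46, Dnmt3b 30, Tdg 26, Tet3 22, Uhrf1 12 and Dnmt1 2. The windows of the 4 genes that fell therefore ran from average to among the highest CG content of all promoters. RefSeq gave 3 promoters each for Dnmt3a, Dnmt3l, Dnmt1 and Zfp57, and 2 for Uhrf1. For these genes only the start nearest the gene start was used, and other starts may differ in CG content. Which start was in use in these cells was not measured. GGGCGG, searched on both strands, was in 35.7% of all promoters and in the windows of Dnmt3a, Dnmt3b, Dnmt3l, Uhrf1, Tet1, Tet2 and Tet3. CACGTG, in 7.15% of promoters, was found in the Tdg window, and ATGCAAAT (1.74% of promoters) and TTTGGCGC (0.514%) were in no member's window. The RefSeq start used for Tet1 lies 21672 bases, and that for Tet3 17406 bases, inside the gene start of the tables. No methylation was measured here.

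Between EpiSC and ESC, 4 of the 10 genes fell and none rose by edgeR's quasi-likelihood test (adjusted p over 21104 genes, threshold 0.05), against 16.9% of all genes tested called in either direction 10.1% called lower and 6.86% called higher. The 4 were Dnmt3l, Zfp57, Tet1 and Tet2. The median log2 fold change of the 10 was -0.68, against -0.02 over all genes. The libraries of the groups did not overlap for 7 of the 10, against 36.2% of all genes tested. Leaving out an ESC library leaves 1. Without the diploid ESC library the log2 fold changes were -8.26 for Dnmt3l, -1.61 for Zfp57, -1.66 for Tet1 and -2.23 for Tet2. Without the haploid one they were -9.01, -2.99, -2.39 and -2.99. Uhrf1 had -0.00066 without the diploid and -1.63 without the haploid ESC library, and Tet3 had 0.55 and 2.08. Between EpiLC and ESC none of the 10 passed, against 0.426% of all genes, 0.317% called higher and 0.109% called lower. Of the 10, 5 had an unadjusted p under 0.05 with edgeR (3035 of 21104 genes tested), and DESeq2 called 3 (2.68% of all genes) and limma 0 (1.7%). Without the EpiLC labelled p53-KO, which leaves 1 EpiLC library, the log2 fold changes were 3.61 for Dnmt3b, 2.97 for Dnmt3a and -4.51 for Tet2. Between EpiSC and EpiLC, Dnmt3l and Tet1 fell, against 5.88% of all genes called lower, 3.77% called higher and 9.65% in either direction. These 3 comparisons share libraries and are not independent.

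**Figure D1:**
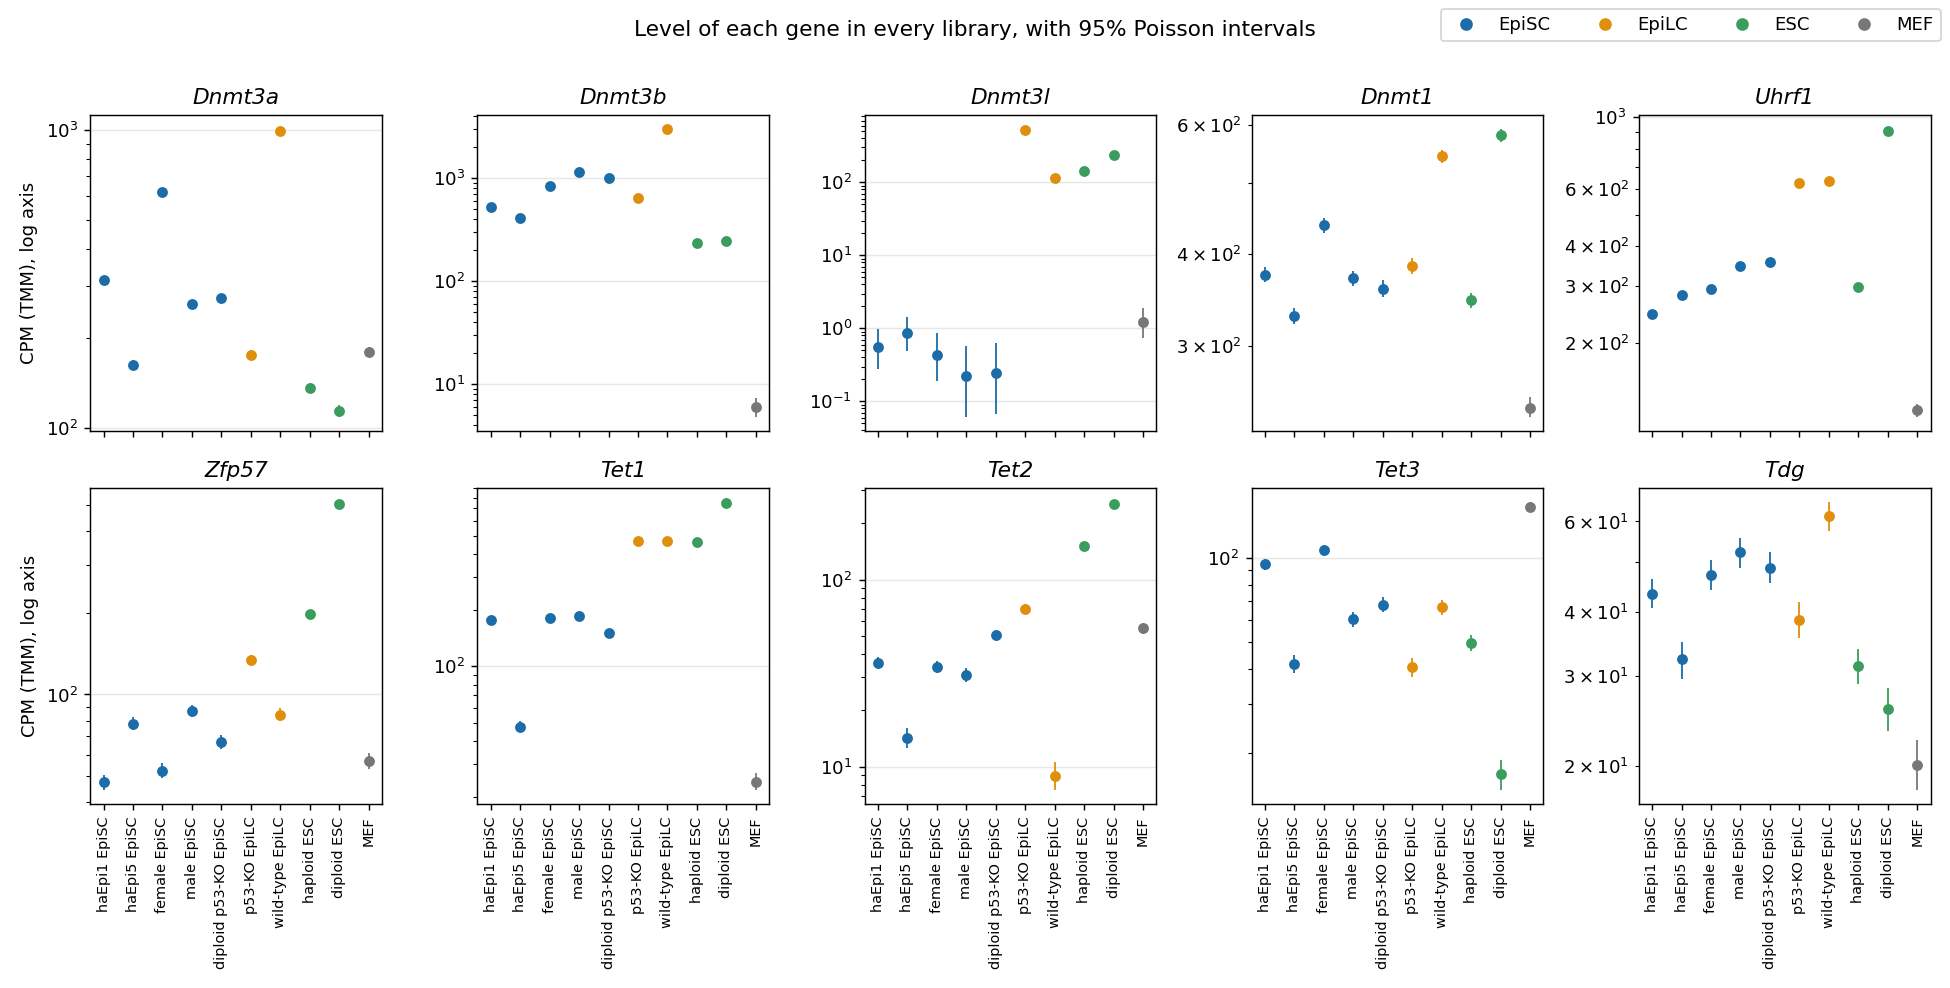
Level of each of the 10 genes in every library, in CPM normalised with TMM factors on a log axis whose range differs by gene; bars are 95% Poisson intervals, which cover counting error only, and colour gives the cell type. Dnmt3l lay between 0.226 and 0.864 CPM in the 5 EpiSC libraries and between 115 and 527 in EpiLC and ESC.

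Dnmt3l, the catalytically inactive cofactor of the de novo enzymes (chr10:78041947-78063622, plus strand, mm10), had the widest range of the 10 genes. It had 0.553 CPM in haEpi1, 0.864 in haEpi5, 0.438 in the female, 0.226 in the male and 0.248 in the diploid p53-KO EpiSC. It had 527 CPM in the EpiLC labelled p53-KO, 115 in the wild-type EpiLC, 143 in the haploid and 236 in the diploid ESC, and 1.21 in MEF. The highest EpiSC library was thus below every EpiLC and ESC library, and below MEF as well. In counts, the EpiSC libraries had 4 to 15 and the others 1780 to 8365, apart from 19 in MEF. On the log2 scale EpiSC differed from ESC by -8.67 ± 0.61 (SE; edgeR adjusted p = 8.32e-05), with 5 of 5 EpiSC libraries below both ESC libraries, and from EpiLC by -9.41 ± 0.62 (adjusted p = 6.84e-05). EpiLC differed from ESC by 0.74 ± 0.63 (edgeR adjusted p = 0.617), and these groups overlapped. Without the EpiLC labelled p53-KO that value turned to -0.74. Among wild-type libraries only, the difference between EpiSC and EpiLC was -8.38 with an adjusted p of 0.14.

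Per length, Dnmt3l also changed places with the other genes. In FPKM it was the highest of the 10 in the EpiLC labelled p53-KO, at 173, and the lowest of the 10 in each of the 5 EpiSC libraries, at 0.073 to 0.279, and in MEF, at 0.42. The gene shares 67 exon bases with Aire on the opposite strand. Aire had 0 to 1198 counts, with its highest value in the diploid ESC library, and reads of both genes cannot be told apart if the counting ignored strand.

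Dnmt3b, a de novo methyltransferase (chr2:153649450-153687730, plus strand), was the highest of the 10 genes in FPKM in all 5 EpiSC libraries and in the wild-type EpiLC. Its level was 524 CPM in haEpi1, 408 in haEpi5, 847 in the female, 1150 in the male and 993 in the diploid p53-KO EpiSC. EpiLC had 648 CPM in the library labelled p53-KO and 2980 in wild type, ESC had 233 in the haploid and 247 in the diploid library, and MEF had 5.93. All EpiSC and EpiLC libraries were above both ESC libraries, and MEF was far below the rest. EpiSC exceeded ESC by 1.68 ± 0.60 on the log2 scale, which did not pass the threshold (edgeR adjusted p = 0.0839), although DESeq2 called it with an adjusted p of 0.0236. Leaving out either EpiLC library gave edgeR adjusted p-values of 0.0286 and 0.0281, and no low-count filter gave 0.00475. EpiLC exceeded ESC by 2.92 ± 0.70 (edgeR adjusted p = 0.117), by 3.61 (adjusted p = 0.0321) without the EpiLC labelled p53-KO, and by 1.41 (adjusted p = 0.564) without the wild-type EpiLC. Against MEF, Dnmt3b was higher by 7.02 ± 1.16 in EpiSC (adjusted p = 0.0046) and by 5.34 ± 1.08 in ESC (adjusted p = 0.00961).

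Dnmt3a, the other de novo methyltransferase (chr12:3806007-3914443, plus strand), varied more among EpiSC lines. It had 315 CPM in haEpi1, 163 in haEpi5, 619 in the female, 261 in the male and 273 in the diploid p53-KO EpiSC. It had 176 CPM in the EpiLC labelled p53-KO, 994 in the wild-type EpiLC, 136 in the haploid and 114 in the diploid ESC, and 180 in MEF. The EpiSC and EpiLC libraries all lay above both ESC libraries, while MEF lay within their range. Relative to ESC, the log2 fold change was 1.36 ± 0.66 in EpiSC (edgeR adjusted p = 0.19) and 2.24 ± 0.76 in EpiLC (adjusted p = 0.243). The EpiLC value was 0.47 (edgeR adjusted p = 0.889) without the wild-type EpiLC and 2.97 (adjusted p = 0.0614) without the other. Against the wild-type EpiLC, all 5 EpiSC libraries were lower for both Dnmt3a and Dnmt3b, and against the EpiLC labelled p53-KO the EpiSC libraries lay on both sides. The difference between EpiSC and EpiLC was -0.87 for Dnmt3a and -1.24 for Dnmt3b, with neither called, and without the wild-type EpiLC these values turned to 0.89 and 0.27.

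Dnmt3b made up most of the summed FPKM of Dnmt3a and Dnmt3b in every pluripotent library. Its share was 81.7% to 93.5% in EpiSC, 92.3% and 90.7% in EpiLC, and 84.9% and 87.6% in ESC, and it was 9.69% in MEF. The mean share was 88.2% ± 5.03 (SD, n = 5) in EpiSC and 86.2% ± 1.93 (SD, n = 2) in ESC, a difference of 1.96 percentage points (two-sided exact permutation p = 0.667). The summed FPKM of both genes was 86.6 to 232 in EpiSC, 135 and 639 in EpiLC, 54.6 and 55.7 in ESC, and 12.4 in MEF. Each EpiSC library thus had a larger sum than either ESC library, with much the same balance between the paralogues.

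Dnmt1, the maintenance methyltransferase (chr9:20907209-20959888, minus strand), was the steadiest of the 10 genes over the 9 pluripotent libraries, where its highest level was 1.77 times its lowest. It had 375 CPM in haEpi1, 329 in haEpi5, 438 in the female, 371 in the male and 359 in the diploid p53-KO EpiSC. It had 386 and 544 CPM in the p53-KO and wild-type EpiLC, 346 and 581 in the haploid and diploid ESC, and 247 in MEF. The ESC libraries lay on both sides of the EpiSC median, so the groups overlapped, and MEF was the lowest. Dnmt1 in EpiSC relative to ESC had a log2 fold change of -0.34 ± 0.25 (edgeR adjusted p = 0.398), and it was 0.09 without the diploid ESC library.

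Uhrf1, the cofactor that recruits DNMT1 (chr17:56303321-56323486, plus strand), had 246 CPM in haEpi1, 281 in haEpi5, 294 in the female, 346 in the male and 356 in the diploid p53-KO EpiSC. It had 626 and 634 CPM in the p53-KO and wild-type EpiLC, 299 in the haploid and 906 in the diploid ESC, and 124 in MEF. Both EpiLC libraries were above all 5 EpiSC libraries, and the haploid ESC library lay within the EpiSC range. EpiSC relative to ESC had a log2 fold change of -1.03 ± 0.35 (edgeR adjusted p = 0.0739), and relative to EpiLC one of -1.07 ± 0.35 (adjusted p = 0.0837). The value against ESC rested on the diploid ESC library: it was -0.00066 (edgeR adjusted p = 1) without that library and -1.63 (adjusted p = 0.00396) without the haploid one. Without the haploid ESC library the value against EpiLC was -1.07 (adjusted p = 0.0118). ESC were above MEF by 2.31 ± 0.61 (edgeR adjusted p = 0.0252), and by 1.3 (adjusted p = 0.046) without the diploid ESC library. Uhrf1 was the highest of the 10 genes in FPKM in both ESC libraries, at 71.2 and 214.

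Genes of DNA replication were measured beside Uhrf1. The summed level of 18 of them was 2410 to 3350 CPM in EpiSC, 4330 and 5950 in EpiLC, 3080 and 4740 in the haploid and diploid ESC, and 1260 in MEF. Of these 18 genes, 2 fell between ESC and EpiSC, near the 10.1% of all genes called lower. Between EpiLC and EpiSC 7 fell, against 5.88% of all genes, among them Ccne1 at -1.40 ± 0.24 (edgeR adjusted p = 0.00907), which encodes a cyclin of S-phase entry, and Cdt1 at -1.30 ± 0.24 (adjusted p = 0.0107), which licenses origins. The part of replication in the Uhrf1 values was not tested.

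Zfp57, the guardian of imprinting control regions (chr17:37001163-37010635, plus strand), had 47.5 CPM in haEpi1, 78.1 in haEpi5, 52.3 in the female, 86.7 in the male and 66.9 in the diploid p53-KO EpiSC. It had 134 CPM in the EpiLC labelled p53-KO, 84.3 in the wild-type EpiLC, 199 in the haploid and 503 in the diploid ESC, and 56.8 in MEF. Both ESC libraries were above all other libraries, and MEF lay within the EpiSC range. The difference of EpiSC from ESC was -2.44 ± 0.35 on the log2 scale (edgeR adjusted p = 0.00222), with -1.61 (adjusted p = 0.024) without the diploid ESC library, and an adjusted p of 0.131 among wild-type libraries only. EpiLC relative to ESC had -1.70 ± 0.47, which did not pass with edgeR (adjusted p = 0.159). DESeq2 called it (adjusted p = 0.0223), and without the diploid ESC library the edgeR value was -0.89 (adjusted p = 0.359). ESC exceeded MEF by 2.65 ± 0.64 (adjusted p = 0.0184), and EpiSC differed from MEF by 0.20 ± 0.51 (adjusted p = 0.836).

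**Figure D2:**
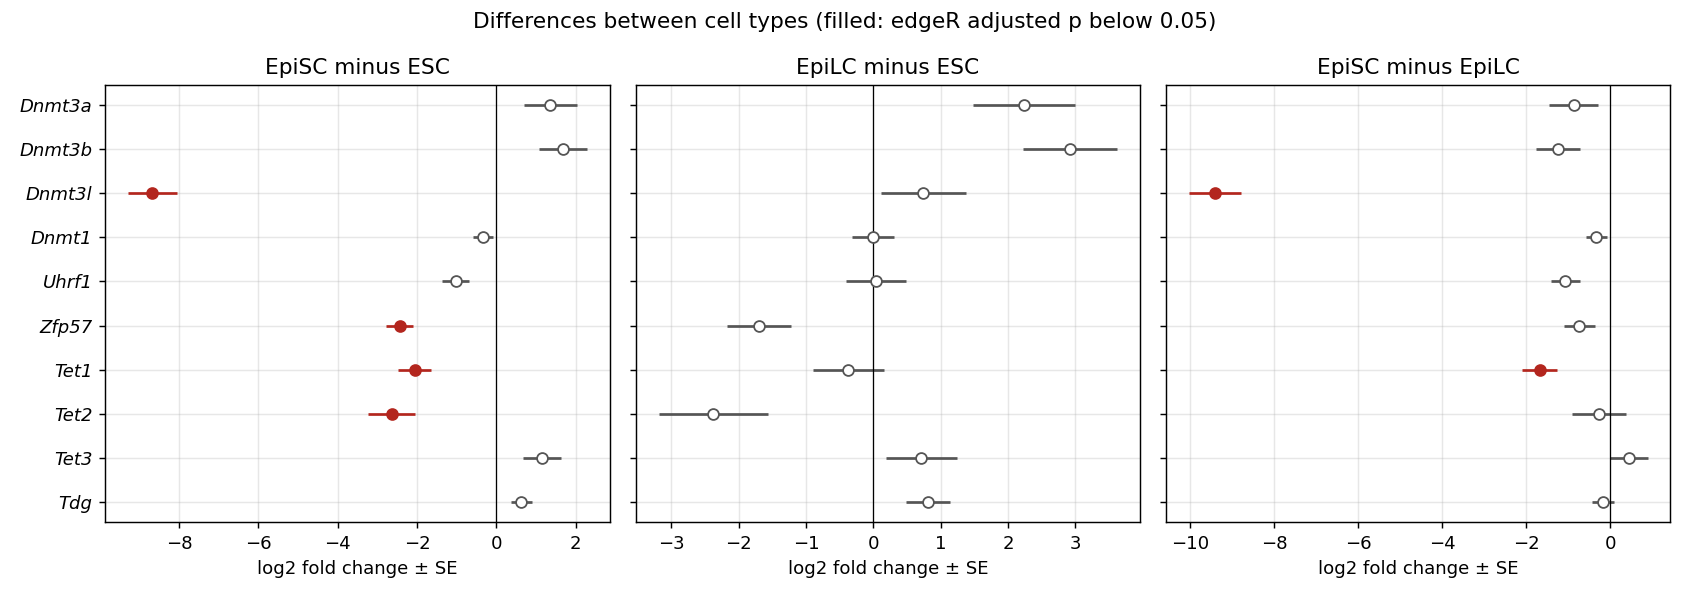
Log2 fold change of each gene, with its standard error, between EpiSC (5 libraries) and ESC (2), EpiLC (2) and ESC (2), and EpiSC and EpiLC; filled points have an edgeR adjusted p below 0.05 over 21104 genes, and the horizontal scale differs between panels. Dnmt3l fell in both EpiSC comparisons, at -8.67 and -9.41, Tet1 at -2.06 and -1.68, and no gene passed between EpiLC and ESC.

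Tet1 is the main TET enzyme of naive ESC (chr10:62804570-62908996, minus strand). It had 176 CPM in haEpi1, 47.6 in haEpi5, 181 in the female, 186 in the male and 151 in the diploid p53-KO EpiSC. It had 468 CPM in each of the EpiLC libraries, 460 in the haploid and 745 in the diploid ESC, and 24.2 in MEF. All EpiSC libraries lay below all EpiLC and ESC libraries and above MEF. In EpiSC the log2 fold change was -2.06 ± 0.42 relative to ESC (edgeR adjusted p = 0.00991) and -1.68 ± 0.42 relative to EpiLC (adjusted p = 0.0349). In EpiLC it was -0.37 ± 0.53 relative to ESC (edgeR adjusted p = 0.776). EpiSC exceeded MEF by 2.59 ± 0.71 (edgeR adjusted p = 0.0374), which became 0.0586 to 0.0628 when haEpi1, the female, the male or the diploid p53-KO EpiSC was left out, and ESC exceeded MEF by 4.65 (adjusted p = 0.0063). Against ESC, EpiSC had -1.66 without the diploid ESC library, with an edgeR adjusted p of 0.0879. For EpiSC against EpiLC the edgeR adjusted p was 0.131 without the EpiLC labelled p53-KO, 0.128 without the wild-type EpiLC, 0.0612 without haEpi1, 0.059 without the female line and 0.0661 without the diploid p53-KO EpiSC.

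Among EpiSC the Tet1 level of haEpi5 stood below the other lines. Without that library the log2 fold change against ESC was -1.83 (edgeR adjusted p = 0.00337). The haEpi5 library was the lowest of the 5 EpiSC libraries for 7 of the 10 members and the highest for 1. Over 11003 protein-coding genes with a mean of at least 5 CPM in EpiSC, it was the lowest for 21.8% and the highest for 26.0%. It was the lowest for 54.0% of the 1173 such genes of 10000 bases or more, against 18.0% of shorter ones. Tet1, Tet2, Tet3 and Dnmt3a have exon lengths of 15457, 16870, 16695 and 16642 bases in the tables. Mitochondrial genes took 3.83% of haEpi5 counts and 1.2% to 2.2% in the other libraries. The part of gene length or of this library's state in the haEpi5 values was not tested.

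Tet2 (chr3:133463679-133545139, minus strand), the TET paralogue that lost its CXXC domain to a neighbouring gene, had 35.9 CPM in haEpi1, 14.3 in haEpi5, 34.1 in the female, 30.8 in the male and 50.3 in the diploid p53-KO EpiSC. It had 69.6 CPM in the EpiLC labelled p53-KO, 8.97 in the wild-type EpiLC, 152 in the haploid and 252 in the diploid ESC, and 54.8 in MEF. Both ESC libraries were above every other library, while the EpiLC libraries lay on either side of all EpiSC libraries. Tet2 in EpiSC relative to ESC had a log2 fold change of -2.64 ± 0.60 (edgeR adjusted p = 0.0158). It was -2.23 (adjusted p = 0.111) without the diploid ESC library and -2.43 (adjusted p = 0.0782) without haEpi1 and haEpi5. EpiLC relative to ESC had -2.38 ± 0.81 (edgeR adjusted p = 0.241), -4.51 (adjusted p = 0.0389) without the EpiLC labelled p53-KO, and -1.55 (adjusted p = 0.618) without the wild-type EpiLC.

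Tet3, the TET enzyme of the oocyte and zygote (chr6:83362373-83459084, minus strand), ran the other way. It had 94.5 CPM in haEpi1, 41.7 in haEpi5, 106 in the female, 60.1 in the male and 67.9 in the diploid p53-KO EpiSC. It had 40.5 and 66.5 CPM in the p53-KO and wild-type EpiLC, 49.5 in the haploid and 16.8 in the diploid ESC, and 152 in MEF. MEF was the highest and the diploid ESC the lowest, and the haploid ESC library overlapped EpiSC only through haEpi5. EpiSC exceeded ESC by 1.15 ± 0.47 on the log2 scale, which was not called (edgeR adjusted p = 0.126), with 2.08 (adjusted p = 0.0378) without the haploid and 0.55 (adjusted p = 0.575) without the diploid ESC library. ESC were below MEF by a log2 fold change of -2.21 ± 0.62 (adjusted p = 0.0321), with -1.59 (adjusted p = 0.123) without the diploid ESC library.

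The balance of the 3 TET genes therefore differed in level and in makeup. Tet1 made up 47.9% to 69.0% of their summed FPKM in EpiSC, 82.2% and 87.0% in EpiLC, 71.3% and 75.1% in ESC, and 11.3% in MEF. Tet3 made up 20.6% to 38.8% in EpiSC, 6.58% and 11.4% in EpiLC, 7.1% and 1.57% in the haploid and diploid ESC, and 65.4% in MEF. EpiSC thus lay between the other pluripotent cells and MEF in both shares, with no library overlapping ESC. The mean Tet3 share was 28.9% ± 7.03 (SD, n = 5) in EpiSC and 4.34% ± 3.92 (SD, n = 2) in ESC, the Tet1 share 58.5% ± 7.45 and 73.2% ± 2.69, and the Tet2 share 12.5% ± 3.15 and 22.4% ± 1.22. Each of these 3 differences had a two-sided exact permutation p of 0.0952, the smallest that 21 splits allow, and 0.127 after adjustment over the 4 shares tested, so this design could not reach 0.05. Summed TET FPKM was 6.2 to 19.5 in EpiSC, 36.2 and 34.6 in EpiLC, 42.3 and 64.6 in ESC, and 14.4 in MEF.

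**Figure D3:**
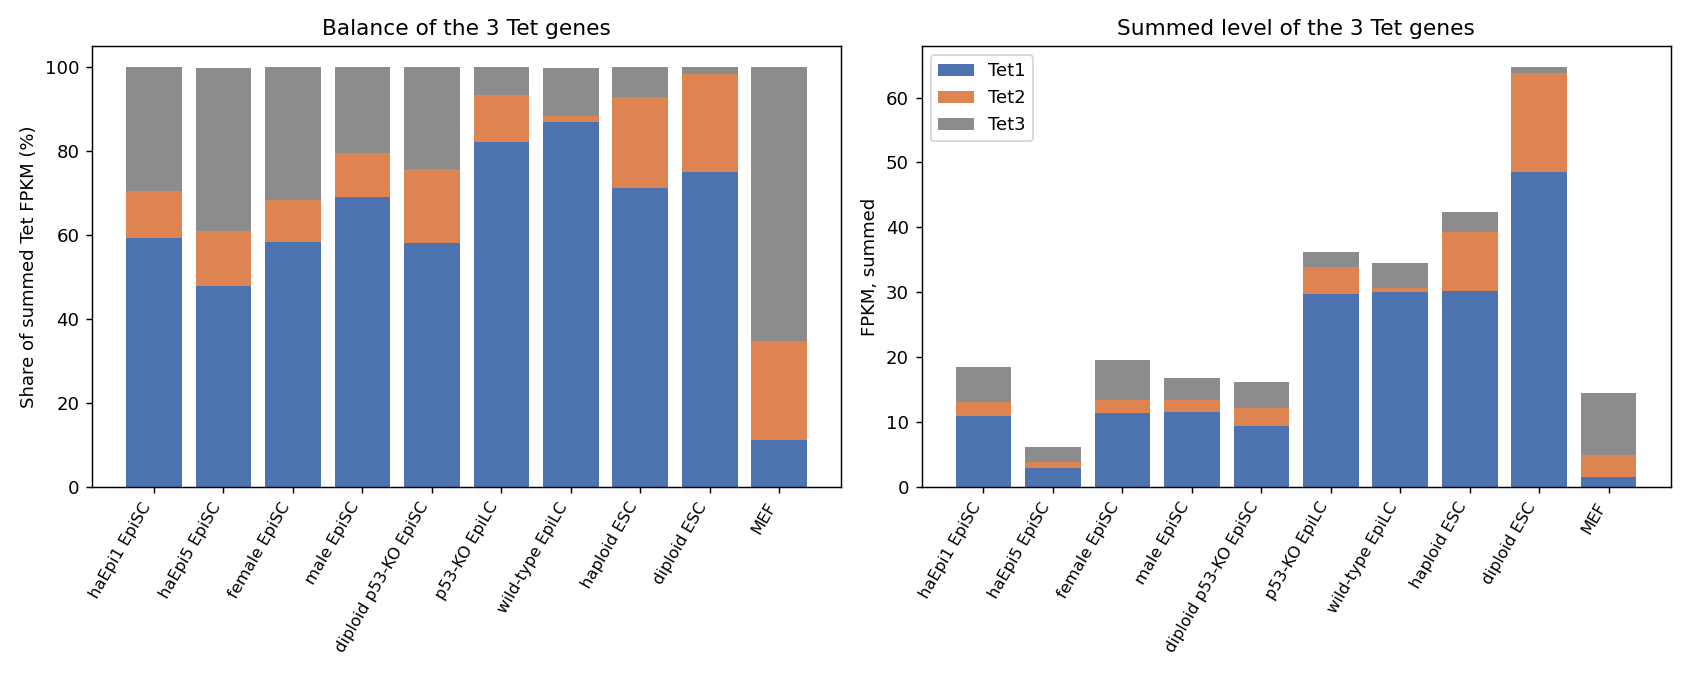
Left, share of Tet1, Tet2 and Tet3 in their summed FPKM, in percent, for each library; right, the same values as summed FPKM. Tet3 held 20.6% to 38.8% in the 5 EpiSC libraries and 7.1% and 1.57% in the ESC libraries, and the EpiSC sums, 6.2 to 19.5, were all below those of EpiLC and ESC.

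Fibroblast-type RNA was measured beside these shares because MEF had the highest Tet3. The median of the 20 fibroblast genes was 17 to 67.8 CPM in EpiSC, 1.48 and 5.51 in EpiLC, 28.6 in the haploid and 0.342 in the diploid ESC, and 2090 in MEF. The haploid ESC library, with more fibroblast RNA than the diploid one, also had the higher Tet3 and the lower Zfp57, Tet1 and Tet2. The part of fibroblast RNA in these values was not tested.

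Tdg, the glycosylase at the end of the TET pathway (chr10:82629828-82650799, plus strand), had 43.4 CPM in haEpi1, 32.3 in haEpi5, 47.2 in the female, 52.2 in the male and 48.8 in the diploid p53-KO EpiSC. It had 38.6 and 61.4 CPM in the p53-KO and wild-type EpiLC, 31.3 and 25.8 in the haploid and diploid ESC, and 20.1 in MEF. Both ESC libraries and MEF lay below all EpiSC and EpiLC libraries, by a narrow margin for haEpi5. EpiSC exceeded ESC by 0.63 ± 0.27 on the log2 scale (edgeR adjusted p = 0.145) and MEF by 1.13 ± 0.38 (adjusted p = 0.0725), neither of which passed. Tdg counts are uncertain: Gm9855, a processed pseudogene that RefSeq also names Tdg-ps2, had 443 to 1582 counts against 316 to 952 for Tdg, and Glt8d2 shares 367 exon bases with Tdg on the opposite strand.

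In the comparisons with MEF, 2 of the 10 members were called in EpiSC, both higher, and 6 in ESC, 5 of them higher. These stand against 5.93% of genes called higher, 8.79% lower and 14.7% in either direction in EpiSC, and 9.36% called higher, 12% lower and 21.3% in either direction in ESC. The single MEF library was assumed to vary like the others. Dnmt3l, at 1.21 CPM in MEF, was higher in ESC by a log2 fold change of 7.29 (edgeR adjusted p = 0.00414). Dnmt1 was the highest of the 10 genes in FPKM in MEF, at 34.7.

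Partners of these enzymes were measured as well. Of 15 genes that act with the methyltransferases, 3 fell between ESC and EpiSC, against 10.1% of all genes, and none rose: Morc1, a germline silencer of transposons, by a log2 fold change of -7.04 ± 0.63 (edgeR adjusted p = 0.000204), Dppa3, which hinders UHRF1 and DNMT1 in oocytes and ESC, by -6.91 ± 0.91 (adjusted p = 0.0014), and Usp7, a deubiquitinase that binds DNMT1, by -0.88 ± 0.21 (adjusted p = 0.0209). Between EpiLC and EpiSC, 5 of the 15 fell, against 5.88% of all genes, Hells among them at -1.43 ± 0.30 (adjusted p = 0.0184), which remodels chromatin for methylation. Dppa3 is also on the list of naive markers. Dppa3 had 0 to 3 and Morc1 3 to 25 counts in EpiSC, so the size of their fold changes is imprecise. The list's median log2 fold change was -0.36 between EpiSC and ESC, against -0.02 over all genes.

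The next 4 lists are read against the 16.9% of all genes called between EpiSC and ESC, 10.1% lower and 6.86% higher, and the counts are small. Of 12 genes of imprint and repeat silencing, 3 fell between ESC and EpiSC: Zfp42, also a naive marker, at -7.92 ± 0.74 (edgeR adjusted p = 0.000263), Ctcfl, the germline paralogue of CTCF, at -7.92 ± 0.95 (adjusted p = 0.000917), and Daxx, a histone chaperone, at -0.65 ± 0.18 (adjusted p = 0.0354). Of 10 methyl-CpG readers 1 was called, Zbtb38, at -1.18 ± 0.32 (adjusted p = 0.0317). Of 18 genes that act with TET enzymes or in base excision, Cxxc4, whose gene neighbours Tet2 and encodes a CXXC protein, rose by 4.32 ± 1.17 (adjusted p = 0.0324), and Ung, a uracil glycosylase, fell by 1.16 ± 0.24 (adjusted p = 0.0116). Of 13 genes of methyl donor metabolism, Mat1a, an S-adenosylmethionine synthetase, rose by 5.41 ± 1.36 (adjusted p = 0.0241). Tdh, the threonine dehydrogenase on which mouse ESC depend, fell by 9.09 ± 1.03 (adjusted p = 0.000725). Several of these fold changes rest on a side near 0 counts and are imprecise in size. Mat1a had 0 to 2 and Cxxc4 0 to 11 counts in ESC, and Ctcfl had 0 to 1 and Tdh 0 to 28 in EpiSC.

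Among the 5 EpiSC libraries, none of the 10 genes was called between haploid p53-KO and wild-type diploid lines (2 against 2), haploid and diploid p53-KO lines (2 against 1), or diploid p53-KO and wild-type lines (1 against 2). The background was 0% of 18153 genes in each. With edgeR, 1, 1 and 0 of the 10 had an unadjusted p under 0.05, against 641, 1007 and 700 of 18153 genes tested. DESeq2 called 0 of the 10, against 22, 268 and 135 of 30688 genes, and limma called 0, against 0% of all genes. That 1 gene was Dnmt3b in both cases. Its mean was 466 CPM in the 2 haploid lines, 998 in the wild-type lines and 993 in the diploid p53-KO line, without overlap, and the log2 fold changes were -1.09 ± 0.30 (edgeR adjusted p = 0.976) and -1.08 ± 0.35 (adjusted p = 0.835).

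Across the 9 pluripotent libraries, with cell type, p53 label and ploidy in an additive fit, none of the 10 genes was called for either label, and neither was any other of 18659 genes (0%). For the p53 label, 3 of the 10 members had an unadjusted p under 0.05 with edgeR, against 572 of 18659 genes tested. These were Dnmt3a, with a log2 fold change of -1.42 in libraries labelled p53-KO, Dnmt3l, with 1.62, and Tet2, with 1.41. Without the wild-type EpiLC the Dnmt3a value was -0.82, and without the EpiLC labelled p53-KO the Dnmt3l and Tet2 values were 0.76 and 0.55. Leaving out either EpiLC library takes the EpiLC pair out of the p53 estimate, so these values do not single out 1 library. For haploidy, 2 had one, against 881 of 18659 genes tested. They were Uhrf1 with -0.84, which was -0.38 without the diploid ESC library, and Tet2 with -1.31, which was -0.87 without the wild-type EpiLC. DESeq2 and limma called 0 for both labels, against 0.0679% and 0.116% of all genes with DESeq2 and 0% with limma. The level of Trp53 did not separate the libraries by label, so the direction rests on the labels alone.

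The 2 haploid EpiLC libraries differed in several members, as single libraries without a test. The log2 ratio of the library labelled p53-KO over wild type was -2.50 for Dnmt3a and -2.20 for Dnmt3b, and 2.20 for Dnmt3l and 2.94 for Tet2. Among 12048 genes with at least 100 counts in the pair, these absolute ratios were at or above those of 95.4% to 97.6% of genes. The catalytic de novo enzymes were thus lower and their cofactor higher in the same library. Tet1 was equal, at 0.00, as was Uhrf1 nearly, at -0.02, and Tdg had -0.67, Dnmt1 -0.50, Tet3 -0.72 and Zfp57 0.67.

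Markers of the naive state moved with this pair. The median level of 14 naive genes was 109 CPM in the EpiLC labelled p53-KO against 9.91 in the wild-type EpiLC, beside 149 and 226 in the haploid and diploid ESC and 0.933 to 8.46 in EpiSC. Their summed level was 1930 and 1110 CPM in these EpiLC libraries, 2950 and 5430 in ESC, and 183 to 255 in EpiSC. By the sum both EpiLC libraries lay between ESC and EpiSC, and the gap between them was smaller than by the median. The summed level of 12 post-implantation genes was 610 and 1190 CPM in the same EpiLC libraries, 118 and 142 in ESC, and 799 to 1290 in EpiSC. Their median was 44 and 87.4 CPM in these EpiLC libraries, 7.79 and 3.11 in ESC, and 30.2 to 57 in EpiSC. Whether the Dnmt3a, Dnmt3b, Dnmt3l and Tet2 values go with genotype or with how far each culture had left the naive state cannot be told apart.

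**Figure D4:**
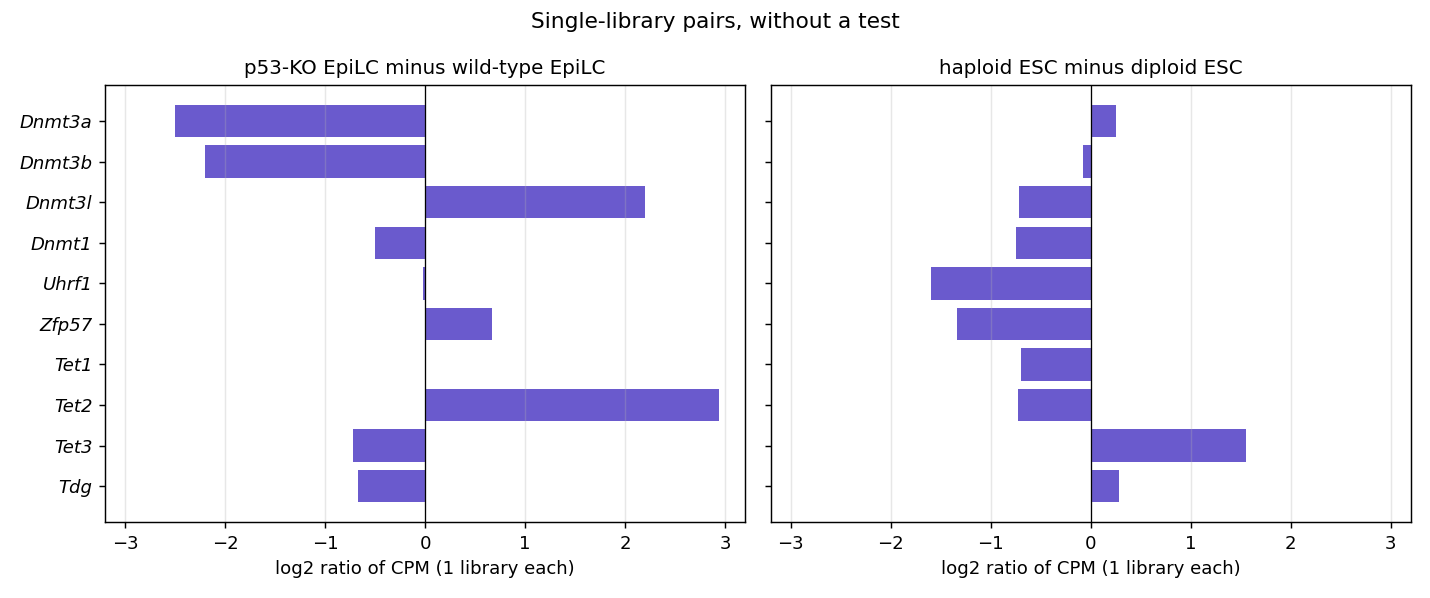
Log2 ratio of CPM between the EpiLC labelled p53-KO and the wild-type EpiLC, and between the haploid and the diploid ESC, for each gene; each bar compares 1 library with 1 library and has no error. In EpiLC the ratios ran from -2.50 for Dnmt3a to 2.94 for Tet2, and in ESC from -1.60 for Uhrf1 to 1.55 for Tet3.

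Between the haploid and the diploid ESC, also 1 library each, the log2 ratio was -1.60 for Uhrf1, -1.34 for Zfp57, 1.55 for Tet3 and between -0.75 and 0.28 for the other 7. Dnmt3b was nearly equal, at -0.08. For Tet3 and Uhrf1 the ratio between the ESC libraries was thus larger in size than the difference of EpiSC from ESC, 1.15 and -1.03.

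Over the 9 pluripotent libraries the range of levels set the members apart. The highest CPM was 2330 times the lowest for Dnmt3l, 28.1 for Tet2, 15.7 for Tet1, 12.8 for Dnmt3b, 10.6 for Zfp57, 8.71 for Dnmt3a, 6.3 for Tet3, 3.69 for Uhrf1, 2.38 for Tdg and 1.77 for Dnmt1. Within the 5 EpiSC libraries the same ratio was 3.91 for Tet1, 3.82 for Dnmt3l, 3.8 for Dnmt3a and 1.33 for Dnmt1. The maintenance methyltransferase was the steadiest in both sets.

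Pairs of members also ran together. Over these 9 libraries Pearson's r of log2(CPM + 1) was 0.943 between Dnmt3b and Tdg, 0.861 between Dnmt3a and Dnmt3b, 0.831 between Dnmt3l and Tet1, and -0.911 between Zfp57 and Tet3. Outside the set, genes among the most alike of 10905 were Psma8 (r = 0.997), a testis proteasome subunit, for Dnmt3l, Ptpn3 (0.957) and E2f7 (0.961) for Dnmt3b, Fbxl14 (0.956) for Dnmt3a, Slc41a1 (0.941) for Tet2 and Tbc1d13 (0.972) for Zfp57. Over all 10 libraries r was 0.997 for Psma8, 0.985 for Ptpn3, 0.786 for E2f7, 0.933 for Fbxl14, 0.94 for Slc41a1 and 0.928 for Tbc1d13. These are descriptions, since the libraries fall into cell types and share them across all genes.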

How the data were processed

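The authors deposited whole-number counts per gene and FPKM for the same libraries. Per the submitters' processing notes, reads were aligned to mm10 with HISAT2 2.0.5 and counted with featureCounts 1.5.0-p3; the sources used here do not give the strand setting. The deposited FPKM equalled counts over gene length and 1 constant per library (largest relative deviation 2.3e-08 over counts above 20), and the constants lay within 1.26% of median-of-ratios size factors. The 10 members and the gene lists were chosen with earlier results of these data known. Groups came from the labels. No libraries were duplicates: over all pairs, chi-square per degree of freedom was at least 38.89.

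The tests of counts used edgeR 4.0.16 (R 4.3.3; filterByExpr, TMM, quasi-likelihood F test, Benjamini-Hochberg over all genes tested, threshold 0.05). Cell types were compared in 1 fit of 10 libraries, EpiSC groups in 1 fit of 5, and p53 label and ploidy in an additive fit of 9 pluripotent libraries. A group of 1 library was assumed to vary like the others. Poisson intervals are at 95% and, as reads carry no molecular identifiers, cover counting error only. Shares of FPKM were tested with exact permutation tests. From each list, at most 4 called genes with the smallest p were named, and for 6 members the most alike genes by Pearson's r were eligible. For Tet1 such a gene is not reported here. Alternatives were RLE scaling, no low-count filter, DESeq2 1.42.0, limma 3.58.1 on log2(FPKM + 1) and log2(FPKM + 0.1), leaving out each library, covariates, and subsets of libraries. The edgeR step was also tested on simulated data.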

Additional observations from a re-analysis of the deposited data

Results flagged for a closer look

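The Tet1 level of haEpi5, 47.6 CPM, stood apart from the other 4 EpiSC libraries, which lay between 151 and 186. Its gap to the nearest library was 0.746 of the group's range, above Dixon's 95% critical value for 5 values. It was the only value to stand apart among 14 groups of 5 values tested. Chance gives about 1 in 20 for each group, so 1 such value among 14 groups is not unusual.

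For 3 genes every pair of libraries compared for a label went one way in one cell type and the opposite way in the other, and none of these differences was tested. Genes whose pairs within a cell type went both ways are not counted. The log2 ratio of haploid over diploid libraries for Dnmt3l was -0.72 in wild-type ESC and 1.48 in p53-KO EpiSC, a difference of -2.20, where the EpiSC values rest on 4 to 15 counts. For Tdg it was 0.28 in ESC and -0.38 in EpiSC, a difference of 0.66. For Uhrf1 the ratio of p53-KO over wild type was -0.02 in haploid EpiLC and 0.16 in diploid EpiSC, a difference of -0.18.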

How the results depend on the processing

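The number of members called moved with the settings. Between EpiSC and ESC it was 4, and 8 with no low-count filter, 1 with wild-type libraries only and 2 to 6 when each library was left out in turn. Between EpiLC and ESC it was 0, and 4 with no filter, 3 with DESeq2 and 0 to 2 leaving out libraries. Between EpiSC and EpiLC it was 2, and 4 with no filter, 1 with limma on log2(FPKM + 0.1) and 1 to 3 leaving out libraries. Wild-type libraries only leave 1 EpiLC library, too few for a count of members to be read. There the log2 fold changes were -8.38 for Dnmt3l and -1.33 for Tet1. Against MEF it was 2 for EpiSC, with 1 by limma on log2(FPKM + 1), 1 with wild-type libraries only and 1 to 3 leaving out libraries, and 6 for ESC, with 3 with wild-type libraries only and 5 to 7 leaving out libraries. Of the 14 calls, RLE scaling, no filter, DESeq2 and the fit with covariates kept 14, wild-type libraries only kept 5, and leaving out haEpi1 and haEpi5 (chosen after seeing the data) kept 12. Dnmt3l between EpiSC and ESC was kept in 18 of 18 settings. The ranges from leaving out libraries include fits that leave 1 library in a group, so they are no result about the members. The share of all genes called moved with the settings too. Between EpiSC and ESC it was 16.9% in the main fit, 12.8% with no filter and 0.339% with wild-type libraries only. Between EpiLC and ESC it was 0.426% in the main fit, 1.88% with no filter and 2.68% with DESeq2. Between EpiSC and EpiLC it was 9.65% in the main fit, 8.8% with no filter and 10.8% by limma on log2(FPKM + 0.1). Against MEF it was 14.7% for EpiSC in the main fit, 19.3% by limma on log2(FPKM + 1) and 0.33% with wild-type libraries only. For ESC against MEF it was 21.3% in the main fit and 3.51% with wild-type libraries only. Member values that turned sign were all uncalled, and the cause was not tested. Between EpiLC and ESC, Dnmt3l was -0.21 with covariates and -0.73 with wild-type libraries only, Dnmt1 was 0.0035 with no filter, 0.22 with covariates and 0.22 with wild-type libraries only, and Tet1 was 0.04 with covariates. Between EpiSC and EpiLC, Tet2 was 0.02 and 0.21 by limma with pseudocounts of 1 and 0.1, and 1.88 with wild-type libraries only. Leaving out libraries, Dnmt1 between EpiSC and ESC ran from -0.7 to 0.09; between EpiLC and ESC, Dnmt3l ran from -0.74 to 1.46, Dnmt1 from -0.36 to 0.4, Uhrf1 from -0.56 to 1.05 and Tet1 from -0.71 to 0.00076; between EpiSC and EpiLC, Dnmt3a ran from -1.61 to 0.89, Dnmt3b from -1.93 to 0.27, Tet2 from -1.07 to 1.88 and Tdg from -0.46 to 0.21. Groups of 1 and 2 libraries limit every comparison here, and Dnmt3l at 4 to 15 counts in EpiSC is imprecise. No paired analysis was possible because the labels tie no library of one group to a library of another, and the replicate numbers used here only follow accession order.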
